A study of Mus musculus with 4 samples.

Results

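The interferon gamma axis of Th1 cells was followed here through 8 genes: the cytokine gene Ifng, the receptor chain genes Ifngr1 and Ifngr2, the target gene Irf1, and the genes Stat4, Il12rb1, Il12rb2 and Il18r1 of the pathways that induce Ifng. The members were the probe sets that the platform annotation assigns to 1 gene symbol among these 8. That gave 9 of the 12488 probe sets on the array, with 1 probe set for each of 7 genes and a pair for Il12rb1. Expression was measured in a mouse Th1 T cell clone on 4 microarrays. Control arrays 1 and 2 hold RNA of the normal, quiescent clone, and anergic arrays 1 and 2 hold RNA of the clone rendered anergic by anti-CD3 bound to the plate. CD3 is the part of the T cell receptor complex that passes the signal into the cell. Both groups share the clonal origin, so they stand for a single T cell receptor and not for Th1 cells at large. The mouse strain, the name of the clone and the time between stimulation and harvest are not given in the labels. Whether a group's arrays hold RNA of separate cultures is not stated, so p-values measure only how far these arrays scatter, and that scatter may be technical.

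Interferon gamma is the cytokine that defines Th1 cells. IL-12 acts on a receptor made of the chains encoded by Il12rb1 and Il12rb2 and activates the transcription factor STAT4, and IL-18 acts on a receptor whose binding chain is encoded by Il18r1. Together these signals, with those of the T cell receptor, drive Ifng. Secreted interferon gamma binds a receptor made of the ligand-binding chain IFNGR1 and the accessory chain IFNGR2, which carry the kinases JAK1 and JAK2. The receptor's signal induces genes such as Irf1, many of which carry a short palindrome known as the GAS element. In T cells the receptor chains are themselves regulated, and Th1 cells are known for low levels of IFNGR2. A T cell is called anergic when it has met a receptor signal without the costimulation it needs and then answers the next signal poorly. The study asked which genes differ in such cells.

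The promoters of Ifng, Ifngr1 and Irf1 are shown first, to set ligand, receptor and target side by side, since these 3 genes had the smallest p-values of the axis. The sequences are RefSeq's for the mouse build GRCm38.p6, from 250 bases before to 50 bases after the annotated start, on the plus strand, and capitals mark matches to the motifs named in the next paragraph.
Ifng, chr10:118440796-118441095: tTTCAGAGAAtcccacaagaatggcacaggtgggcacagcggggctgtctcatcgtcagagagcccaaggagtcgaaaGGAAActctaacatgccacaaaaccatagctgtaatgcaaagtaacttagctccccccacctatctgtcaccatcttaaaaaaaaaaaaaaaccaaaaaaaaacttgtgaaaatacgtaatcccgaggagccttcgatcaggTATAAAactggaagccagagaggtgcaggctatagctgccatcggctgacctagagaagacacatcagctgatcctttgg
Ifngr1, chr10:19591699-19591998: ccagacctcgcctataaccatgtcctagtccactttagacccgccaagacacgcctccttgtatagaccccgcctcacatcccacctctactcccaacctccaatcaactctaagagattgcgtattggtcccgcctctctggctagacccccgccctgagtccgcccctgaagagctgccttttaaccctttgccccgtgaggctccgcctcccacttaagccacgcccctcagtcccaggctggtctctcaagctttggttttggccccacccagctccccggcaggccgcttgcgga
Irf1, chr11:53769764-53770063: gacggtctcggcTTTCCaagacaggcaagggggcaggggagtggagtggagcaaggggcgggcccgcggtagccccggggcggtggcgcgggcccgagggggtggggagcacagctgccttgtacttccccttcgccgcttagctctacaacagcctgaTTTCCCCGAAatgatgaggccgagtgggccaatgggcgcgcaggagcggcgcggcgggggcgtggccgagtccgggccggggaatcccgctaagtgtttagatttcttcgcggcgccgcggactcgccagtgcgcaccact

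The motifs searched on both strands were the GAS palindrome TTCNNNGAA, the interferon response element core (GAAA and GAAA, with any 2 bases between), the T-box site AGGTGTGA, the AP-1 site TGANTCA and the NFAT core GGAAA. The sequence TATAAA was searched as written, and was added after the letters had been seen. The Irf1 window shown held 1 GAS match, TTCCCCGAA, from base -90 to -82 before the start, and 1 of its 2 NFAT cores, on the other strand, overlapped it from -91 to -87. The Ifng window held 1 GAS match at its far end, TTCAGAGAA, 1 NFAT core and 1 TATAAA at -30 to -25. The Ifngr1 window held none of the 6 motifs. Among all 32851 windows in the table, 8.3% held a GAS match, 8.32% held TATAAA and 61.3% held an NFAT core, so these matches are common letters and not mapped sites. The share of G and C was 46% in the Ifng window, 60.3% for Ifngr1 and 69.3% in the Irf1 window shown, against a median of 52.7% over all windows. RefSeq windows were matched for 7 of the 8 genes, 11 windows in all, and the gene without one is Il12rb1. The second Irf1 window held none of the 6 motifs, with a G and C share of 75%. GAS also matched in windows not shown, with 1 match for Il12rb2 and 2 in window 3 of Il18r1. Window 2 of Stat4 held 1 interferon response element core, which 3.44% of all windows held.

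Some T cell identity genes were bright on every array, among them Cd3e (5974 to 10101.8) and Cd4 (3941.8 to 5106). Others were dimmer, such as Lat (246.7 to 479.2). These genes mark T cells and cannot show that the cells are a clone. Cd3e, Cd4 and Lat were picked after their values had been seen. Of 11 T cell identity genes 10 were measured and all 10 were tested. In limma 0 passed after Benjamini-Hochberg adjustment. An unadjusted p under 0.05 was found for 3 of the 12 tested probe sets, against 11.3% of all tested probe sets. The genes nearest to passing were Thy1 (log2 difference -0.60, adjusted p = 0.353), Cd3d (0.68, adjusted p = 0.438) and Zap70 (-0.48, adjusted p = 0.441). Without control array 2 the differences were -0.77 for Thy1 and 1.08 for Cd3d. Without control array 1 they were -0.43 and 0.29. A fit without 1 array leaves 1 array in a group, so the spread of that group cannot be measured. Such fits are given as differences only. Median intensities of the arrays lay between 134.1 and 191.2. The 9 spike-in probe sets of bacterial transcripts were brightest on control array 2, with a geometric mean of 1972 against 870.4 to 1014 on the other arrays. Over the 7453 probe sets that passed the intensity filter, 100 were called between the groups, 68 higher and 32 lower in anergic cells. The median log2 difference over all of them was -0.0855 on the deposited scale, 0.0209 after each array was centred on its median and -0.0266 with quantile normalization. With the centring the split of calls was 52 higher and 12 lower.

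Of the 9 probe sets of the axis, 7 passed the filter on low intensities and were tested. None of the 7 was called in limma over all probe sets (Benjamini-Hochberg adjusted p at most 0.05), where 1.34% of all tested probe sets were called. An unadjusted p under 0.05 was found for 3 of the 7, those of Ifng, Ifngr1 and Irf1, against 11.3% of all tested probe sets. In a fit with 1 probe set per gene, 1 of the 7 genes was called, Ifngr1, which fell, against 2.17% of all 5583 genes in either direction and 0.842% lower. The anergic and control arrays did not overlap in 4 of the 7 tested probe sets, 1 higher and 3 lower, against 40.3% of all tested probe sets in either direction, 16.8% higher and 23.5% lower. The median log2 difference of the 7 was -0.0155. With 2 arrays a group, the smallest two-sided p of an exact permutation test is 0.333, so each p here rests on the spread that limma shares among probe sets.

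**Figure D1:**
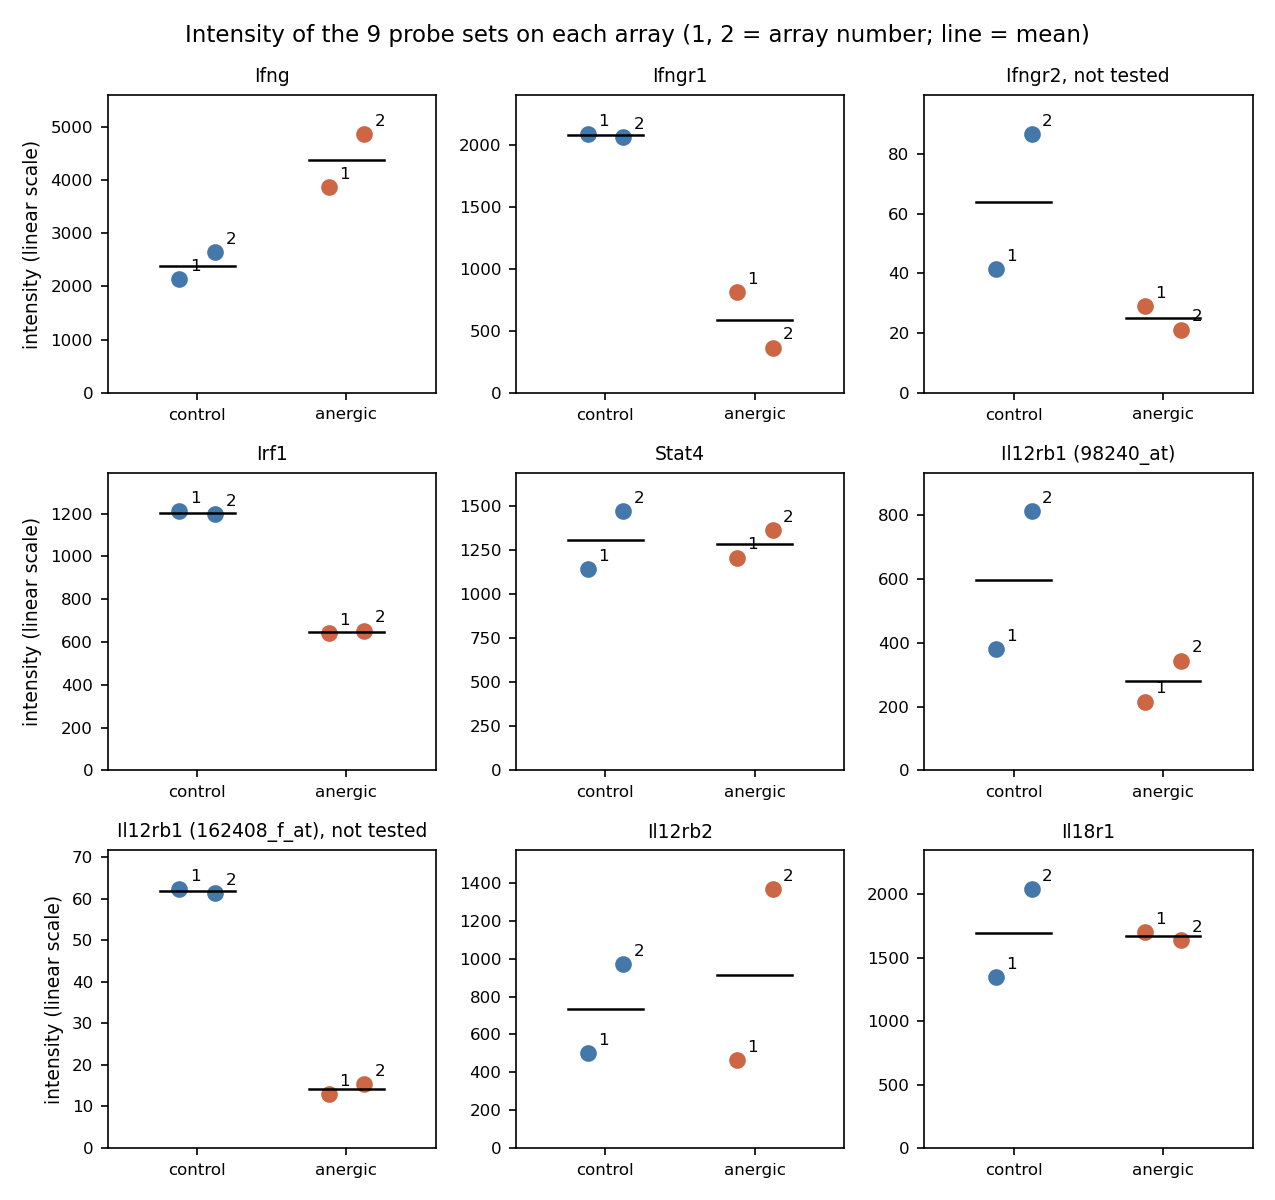
Intensity on a linear scale (y axis, starting at 0) of each of the 9 probe sets of the axis on control arrays 1 and 2 (blue) and anergic arrays 1 and 2 (orange); the black line is the mean of a group. The points of Ifng are higher in anergic cells and those of Ifngr1, Ifngr2, Irf1 and both Il12rb1 probe sets are lower, without overlap, while Stat4, Il12rb2 and Il18r1 overlap.

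Ifng, the ligand, was bright in both groups and brighter in anergic cells. Its intensity was 2131.9 and 2649.1 on control arrays 1 and 2, and 3868.5 and 4864.3 on anergic arrays 1 and 2 (probe set 99334_at). Both anergic arrays were above both control arrays, and in each group array 2 was the brighter. The group means were 2390 ± 365.7 and 4366 ± 704.1 (SD, n = 2 each), a ratio of 1.83. On the scale log2(intensity + 29.15) the difference was 0.86 ± 0.24 (SE, 95% interval 0.31 to 1.41), with an adjusted p of 0.184 in limma. The differences of the 4 possible pairs of an anergic and a control array ran from 0.54 to 1.18. Within a group the arrays differed by 0.31 (control) and 0.33 (anergic). The gap between the groups was thus wider than either gap within a group, but it did not pass the threshold over all probe sets. Without control array 2, the array with the bright spike-ins, the difference was 1.01. With any other array left out it lay between 0.70 and 1.02.

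Ifngr1, the gene of the ligand-binding receptor chain, had the lowest p of the axis. Its intensity was 2091.5 and 2065.3 on the control arrays and 813.5 and 366 on the anergic arrays (probe set 100552_at). The control arrays were nearly equal, both anergic arrays were lower, and anergic array 2 was lower than anergic array 1 by 1.09 on the log2 scale. The group means were 2078 ± 18.5 and 589.8 ± 316.4 (SD, n = 2 each), so the control mean was 3.52 times the anergic mean. In bulk RNA, fewer cells with the transcript and less of it per cell cannot be told apart. The log2 difference was -1.87 ± 0.36 (SE, 95% interval -2.70 to -1.04). It missed the threshold in limma over all probe sets (adjusted p = 0.0565) and passed with 1 probe set per gene (adjusted p = 0.024). The side of the threshold depended on the settings. With quantile normalization Ifngr1 missed it in both limma fits (adjusted p = 0.097 over probe sets and 0.0725 over genes). With centring it missed the threshold over genes (adjusted p = 0.205). The difference was -1.86 without control array 1, -1.88 without control array 2 and -2.42 without anergic array 1. Without anergic array 2, the lower of the anergic pair, it was -1.32.

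Ifngr2, the gene of the signalling chain of the same receptor, was dim. Its intensity was 41.4 and 86.7 on the control arrays and 29 and 21.2 on the anergic arrays (probe set 160694_at). The anergic arrays were below the control arrays, but the control arrays differed from each other by more than anergic array 1 differed from control array 1. The probe set lay below the filter and was not tested, and its log2 difference of -0.74 depended on the pseudocount (-0.27 with the array median added in place of 29.15, and -1.24 with 1 added).

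Irf1 encodes interferon regulatory factor 1, a transcription factor induced by interferon gamma. Its intensity was 1211 and 1197.4 on the control arrays and 641.6 and 652.7 on the anergic arrays (probe set 102401_at). The arrays of each group lay almost on top of each other, with within-group log2 differences of -0.02 and 0.02, and the groups were apart. The control mean was 1.86 times the anergic mean (1204 ± 9.62 and 647.2 ± 7.85, SD, n = 2 each). The log2 difference was -0.87 ± 0.25 (SE, 95% interval -1.43 to -0.30) with an adjusted p of 0.194 in limma. The 4 pairs of an anergic and a control array gave differences from -0.89 to -0.85. The SE is limma's, which pools the spread of this probe set with that of others of like intensity. Leaving out any single array kept the difference between -0.88 and -0.86. The GAS match in its promoter, shown above, lies in sequence only, and no binding was measured.

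**Figure D2:**
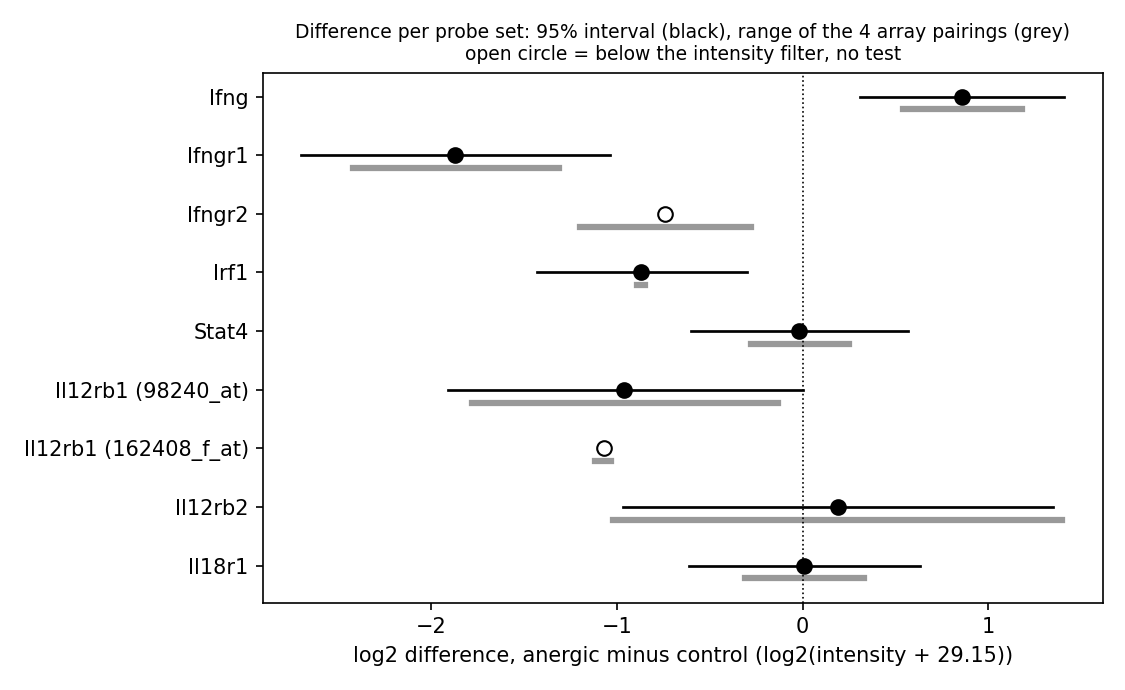
Log2 difference of each probe set (x axis, anergic minus control, on the scale log2(intensity + 29.15)), with limma's 95% interval in black and, in grey, the range of the 4 pairs of an anergic and a control array; open circles mark the 2 probe sets that were not tested. The intervals of Ifng, Ifngr1 and Irf1 lie to one side of 0, and those of Stat4, Il12rb2 and Il18r1 span it. That of the tested Il12rb1 probe set runs from -1.91 to 0, as rounded.

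None of the upstream genes passed the test. Stat4, which encodes the transcription factor that IL-12 activates, was at 1143 and 1469.6 on the control arrays and at 1206.4 and 1362.5 on the anergic arrays (probe set 102994_at). Both anergic values lay between the control values. Its log2 difference was -0.02 ± 0.25 (SE, adjusted p = 0.989 in limma). The 95% interval of -0.60 to 0.57 leaves room for a change of at most 1.51-fold.

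Il18r1, the gene of the IL-18 receptor's binding chain, showed the same picture. It was at 1347.3 and 2043 on the control arrays and at 1699.1 and 1640.8 on the anergic arrays (probe set 101144_at). The anergic values again lay between the control values. The log2 difference was 0.01 ± 0.27 (SE, 95% interval -0.61 to 0.63, adjusted p = 0.995 in limma), and the interval leaves room for at most 1.55-fold.

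The chains of the IL-12 receptor differed in their pattern over the arrays. Il12rb1, which encodes the chain shared with the IL-23 receptor, was at 379.1 and 811.4 on the control arrays and at 215.2 and 344.2 on the anergic arrays (probe set 98240_at). Both anergic arrays were below both control arrays, but anergic array 2 lay close to control array 1, with a log2 difference of -0.13. The log2 difference between the groups was -0.96 ± 0.42 (SE, adjusted p = 0.441 in limma). It was -0.43 without control array 2 and -1.48 without control array 1. The second probe set of the gene, 162408_f_at, was dim. It was at 62.4 and 61.4 on the control arrays and at 13 and 15.3 on the anergic arrays, again lower in anergic cells without overlap. Its name carries the suffix that the array's maker gives to probe sets that can detect a family of like sequences. It lay below the filter and was not tested.

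Il12rb2, which encodes the IL-12 receptor chain that marks the Th1 lineage, was at 501.9 and 969.9 on the control arrays and at 463.5 and 1369.8 on the anergic arrays (probe set 99323_at). The arrays numbered 2 were higher than those numbered 1 in both groups, and the groups overlapped. The within-group log2 differences of 0.91 and 1.51 exceeded the log2 difference between the groups of 0.19 ± 0.50 (SE, 95% interval -0.97 to 1.35, adjusted p = 0.943 in limma). The interval leaves room for a change of up to 2.54-fold.

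**Figure D3:**
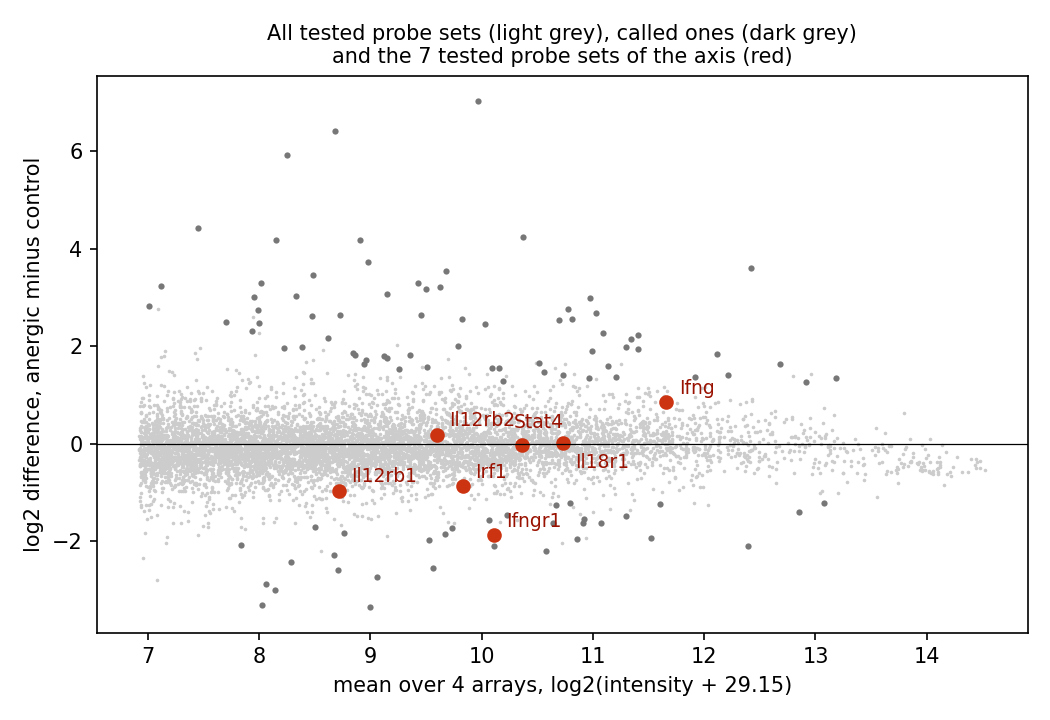
Log2 difference (y axis, anergic minus control) against mean intensity (x axis, log2(intensity + 29.15)) of the 7453 tested probe sets; dark grey points are the 100 called ones and red points the 7 of the axis. Ifngr1 lies at the lower edge of the grey cloud among called probe sets, and Stat4 and Il18r1 lie at its centre.

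Genes of interferon gamma receptor signalling and its inhibitors did not pass. Of 14 listed genes 12 were measured and 11 tested, and 0 passed in limma. An unadjusted p under 0.05 was found for 3 of the 14 tested probe sets, against 11.3% of all tested probe sets. Those 3 were Ptpn6, Cish and Jak2. Ptpn6, which encodes the phosphatase SHP-1, was at 882.1 and 1028.8 on the control arrays and at 335.7 and 338.8 on the anergic arrays (log2 difference -1.42 ± 0.27, SE, adjusted p = 0.0544), and like Ifngr1 it passed with 1 probe set per gene (adjusted p = 0.0298). The difference was -1.53 without control array 1 and -1.31 without control array 2. Without anergic array 1 or 2 it was -1.42 and -1.43. Jak2, the kinase carried by IFNGR2 and by the IL-12 receptor, was at 914.8 and 714.6 on the control arrays and at 1525.8 and 1366 on the anergic arrays (log2 difference 0.81 ± 0.26, SE, adjusted p = 0.251). A second, dim Jak2 probe set overlapped between the groups, at 7.5 and 82.5 against 53.8 and 13.5, and was not tested. Cish, a cytokine-induced feedback inhibitor gene, differed by 1.11 ± 0.33 (SE, adjusted p = 0.211). It differed by 1.57 without control array 1 and by 0.65 without control array 2. The median log2 difference of the 14 tested probe sets was -0.30, against -0.0855 over all probe sets.

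Among genes that interferon gamma induces, 1 fell and most were lower by sign without passing. Of 36 listed genes 29 were measured and 22 tested. Irf9, which encodes the DNA-binding subunit of the interferon-activated complex ISGF3, fell and the other 21 did not pass. Of the 27 tested probe sets 1 was called, against 1.34% of all tested probe sets. An unadjusted p under 0.05 in limma was found for 8 of the 27, 1 higher and 7 lower, against 11.3% of all tested probe sets. Irf9 was at 2068.8 and 1877.5 on the control arrays and at 779.6 and 615.7 on the anergic arrays (log2 difference -1.47 ± 0.25, SE, adjusted p = 0.0379). Its call was lost with centring on the median (adjusted p = 0.263), with no filter (adjusted p = 0.0516) and with no intensity trend (adjusted p = 0.137). The difference was -1.63 without anergic array 1 and -1.31 without anergic array 2. By sign 18 of the 27 tested probe sets were lower, with a median log2 difference of -0.38 against -0.0855 over all. The groups were apart in 12 lower and 3 higher probe sets of the 27, against 23.5% lower and 16.8% higher over all tested probe sets. Iigp1 and Ifi47, which encode interferon-inducible GTPases, were lower by sign. Iigp1 was at 330.3 and 558.8 on the control arrays and at 93 and 153.9 on the anergic arrays (adjusted p = 0.137), and Ifi47 was at 1179.6 and 2230.1 against 865 and 829.7 (adjusted p = 0.318). The log2 differences were -1.62 for Iigp1 and -0.92 for Ifi47, and -1.27 and -0.46 without control array 2. The second Iigp1 probe set was lower too (-1.68, adjusted p = 0.299), and by -0.94 without control array 2. Icam1, an adhesion molecule gene, was higher by sign (0.71, adjusted p = 0.362). Iigp1, Ifi47 and Icam1 were picked after their values had been seen.

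Markers of antigen-presenting cells went in both directions beside these genes. The MHC class II gene H2-Aa was at 178.3 and 140.4 on the control arrays and at 12.2 and 19.2 on the anergic arrays. H2-Ab1 (33.7 and 49.1 against 21.5 and 27.9) and Ciita (135.9 and 110.4 against 29.6 and 103.1) were also lower without overlap. The brighter gene Cd74, which encodes the class II invariant chain, overlapped between the groups. It was at 1775 and 1990.1 against 1982.7 and 2927.6 (log2 difference 0.35, adjusted p = 0.713 in limma). The macrophage gene Lyz2 was at 129.1 and 73.3 against 11.7 and 11.4 at its brighter probe set, whereas one probe set of Csf1r, the receptor gene of the macrophage growth factor, was at 21.1 and 25.9 against 55.8 and 125.7. The brighter Csf1r probe set overlapped between the groups (log2 difference 0.03, adjusted p = 0.989). Both probe sets of Adgre1, from the macrophage list, were dim and higher without overlap. They were at 24 and 20.2 against 36.4 and 36.9, and at 2.9 and 7.3 against 21.1 and 13.3. H2-Aa, H2-Ab1, Ciita, Lyz2, Adgre1 and the dimmer Csf1r probe set lay below the filter and were not tested. Cd68, another macrophage marker, rose from 71 and 91.3 to 497.6 and 531.5 (log2 difference 2.31 ± 0.35, SE, adjusted p = 0.0216), a call lost with no filter (adjusted p = 0.0661). The difference was 2.35 without anergic array 1 and 2.26 without anergic array 2. A second Cd68 probe set was dim, at 11.1 and 6.5 against 6 and 3.1, and was not tested. All 9 macrophage and dendritic cell genes were measured. Of their 4 tested probe sets 1 was higher and 0 lower without overlap, against 16.8% higher and 23.5% lower over all tested probe sets. Over all 14 of their probe sets, most of them below the filter, 4 were higher and 2 lower without overlap. The shares above cover tested probe sets only and cannot be set beside these counts, so nothing is read from them. Their summed intensity was 1376.3 and 1797.7 on the control arrays and 1644.6 and 2291.4 on the anergic arrays, with no probe set at 0. The 6 measured B cell genes summed to 797.9 and 1314.7 on the control arrays and to 698.1 and 1159.6 on the anergic arrays. Limma passed 0 of the 4 tested B cell genes, among them Cd79a, Ms4a1 and Blk, and gave 0 of their probe sets an unadjusted p under 0.05. Of the CD8 and NK cell genes 6 were measured. In limma 1 of 4 tested probe sets had an unadjusted p under 0.05, against 11.3% of all tested probe sets. After adjustment 0 of the 3 tested genes passed. These were Klrd1, bright at 4303.9 to 5510.9 on the 4 arrays, Klra3 (log2 difference -0.23) and Klrk1. Klrk1 is an activating receptor gene of NK cells and some T cells. It was at 226.5 and 794.8 on the control arrays and at 926.2 and 1219 on the anergic arrays (1.25, adjusted p = 0.385). The difference was 2.09 without control array 2 and 0.41 without control array 1. Its second probe set overlapped between the groups, with 190.7 and 1019.7 on the control arrays and 894.7 and 1162 on the anergic arrays. Cd8a was between 6.2 and 18 on every array. H2-Aa, H2-Ab1, Ciita, Cd74, Lyz2, Csf1r, Adgre1 and Cd8a were picked after their values had been seen. Of 7 measured Th2, Th17 and regulatory T cell genes only Gata3 was tested (log2 difference -0.57, adjusted p = 0.613). The part of other cells in the differences of the axis was not tested.

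IL-12 and IL-18 signalling genes and Th1 transcription factors gave no call either. Of 28 listed genes 23 were measured and 15 tested, with 0 past the threshold in limma. An unadjusted p under 0.05 was found for 5 of the 20 tested probe sets, 2 higher and 3 lower, against 11.3% of all tested probe sets. Beside Jak2, the genes nearest to passing were Gadd45b, whose product is known to sustain Ifng transcription in Th1 cells, and Fos, a subunit of AP-1. Gadd45b was at 885.3 and 447.5 on the control arrays and at 1742.6 and 1221.2 on the anergic arrays at one probe set (log2 difference 1.17, adjusted p = 0.235) and differed by 0.48 at the other. The first probe set differed by 1.64 without control array 1 and by 0.70 without control array 2. The related gene Gadd45g went the other way, at 352 and 307.3 on the control arrays and 168.2 and 157.1 on the anergic arrays (-0.90, adjusted p = 0.353). Gadd45g was picked after its values had been seen. Fos was at 396.1 and 661.1 against 177.8 and 262.6 (-1.14, adjusted p = 0.264). A second, dim Fos probe set overlapped between the groups, at 10 and 71.8 against 19.3 and 83.8, and was not tested. The median log2 difference of the 20 tested probe sets was -0.11. Il18rap, the signalling chain that pairs with the product of Il18r1, was at 1471.3 and 2250.1 on the control arrays and at 1831.6 and 2513.5 on the anergic arrays (0.23, adjusted p = 0.877). Like Il18r1 it overlapped between the groups, and it was picked after its values had been seen. The Th1 master regulator gene Tbx21 was not analysed here. Of 4 listed Th1 surface markers 2 were measured and only Cxcr3 was tested. It was at 835.3 and 867.1 on the control arrays and 218.8 and 336.6 on the anergic arrays (-1.55, adjusted p = 0.0642 over probe sets and 0.0332 over genes). The other, Lag3, was dim and went the other way without overlap, at 7.4 and 66.4 against 97.7 and 87.8. It lay below the filter and was not tested, and was picked after its values had been seen. Without control array 1 or 2 Cxcr3 differed by -1.57 and -1.52, and without anergic array 1 or 2 by -1.27 and -1.83.

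**Figure D4:**
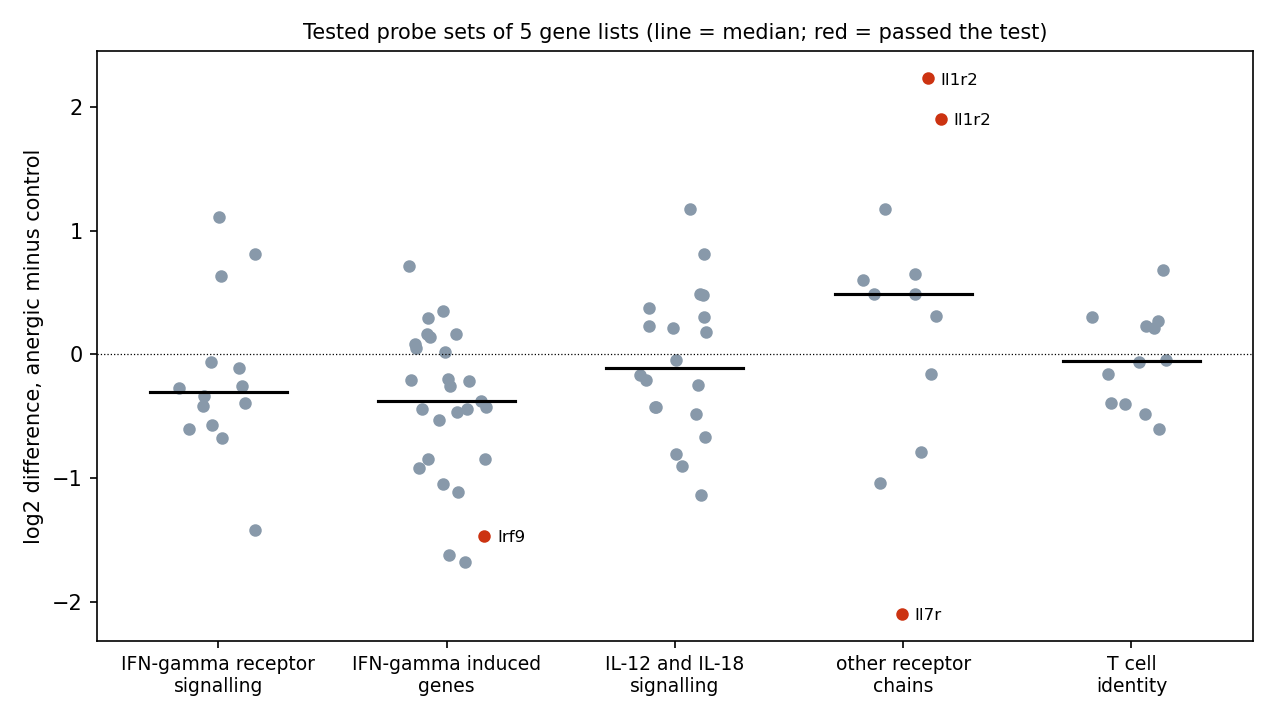
Log2 difference (y axis, anergic minus control) of each tested probe set in 5 gene lists; the line is the median of a list and red marks probe sets that passed the test. Only Irf9, Il1r2 and Il7r carry red points, and the median of the interferon gamma induced genes is -0.38.

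Other cytokine receptor chains gave both a rise and a fall. Of 15 listed genes 12 were measured and 10 tested, where Il1r2 rose, Il7r fell and 8 did not pass. Of their 12 tested probe sets 2 rose and 1 fell, against 1.34% of all tested probe sets called in either direction. An unadjusted p under 0.05 in limma was found for 4 of the 12, against 11.3% of all tested probe sets. Il1r2, the gene of the IL-1 decoy receptor, was at 903.9 and 1644.4 on the control arrays and at 6351.2 and 5369.1 on the anergic arrays (log2 difference 2.23 ± 0.31, SE, adjusted p = 0.0142). Its second probe set rose by 1.90 (adjusted p = 0.016), and both calls were lost with no intensity trend (adjusted p = 0.0972 and 0.0984). The probe sets differed by 2.11 and 1.92 without anergic array 1, and by 2.35 and 1.88 without anergic array 2. Il7r, the receptor gene of the survival cytokine IL-7, fell from 1475.9 and 3445.4 to 485.1 and 526.8 (log2 difference -2.10, adjusted p = 0.0461). It differed by -2.70 and -1.49 without control array 1 or 2, and by -2.04 and -2.15 without anergic array 1 or 2. The Il7r call was lost with no filter (adjusted p = 0.0764), a stricter filter (0.0558), quantile normalization (0.0907), centring (0.0913) and no intensity trend (0.171).

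Several of these receptor genes are neighbours in the genome of members of the axis. Over the 5 protein-coding genes on either side of each of the 8 members, in the order of the RefSeq table for GRCm38.p6, 43 of 80 neighbours were measured and 31 tested. Limma over all probe sets called 1 of these 31 genes, Il1r2, at both of its probe sets. Over all tested probe sets 1.34% were called, and 2.17% of all genes in the fit with 1 probe set per gene. Il1r2 lies in the IL-1 receptor family cluster on chromosome 1, 4 genes from Il18r1, and the neighbour on the other side of Il18r1 is Il18rap. Within this cluster Il1r2 rose, whereas Il18r1 and Il18rap differed by 0.01 and 0.23, and Il1r1 was dim on every array (55.2 to 67.9). Ifngr2 lies on chromosome 16 beside Ifnar1, Il10rb and Ifnar2, which encode chains of the type I interferon and IL-10 receptors. None of these 3 passed. The neighbours of Irf1 include the Th2 cytokine genes Il4, Il5 and Il13, all of whose probe sets lay below the filter. Neighbours were looked up after the members' values had been seen.

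The genes whose profile over the 4 arrays was most like that of Ifng and of Ifngr1 were found among 6667 tested probe sets with 1 gene symbol, by the root mean square difference of log2 values centred on each probe set's mean. For Ifng they were Dip2b (0.0158), the cytokine gene Csf2 (0.042) and Bin1 (0.0584). Csf2, which encodes GM-CSF, was at 395.5 and 478.3 on the control arrays and at 707.9 and 856.5 on the anergic arrays, so it shared both the gap between groups and the higher value on array 2. For Ifngr1 they were the hexokinase gene Hk2 (0.15), the non-coding host gene Snhg5 (0.152) and the phosphatase gene Dusp6 (0.168). Hk2 was at 2027.6 and 1904.4 on the control arrays and at 878.9 and 448.8 on the anergic arrays, which like Ifngr1 puts anergic array 2 lowest. With 4 arrays such a likeness describes these arrays only.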

How the data were processed

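Deposited values were intensities on a linear scale, 1 per probe set and array, in the authors' value table. Scanner software, background correction and probe summary: not given in the sources used here. Each array's trimmed mean (2% off each end) was 500.3, so the deposited scale was kept. Names came from GEO's platform annotation, and all 9 of the axis matched a RefSeq gene ID. After 66 platform controls were left out, values were taken as log2(intensity + 29.15), the pseudocount being the median of the arrays' 20th percentiles. Fold changes on this scale understate those of dim genes. Probe sets with a mean above the 40th percentile were tested with limma 3.58.1 in R 4.3.3 (lmFit, eBayes with trend, two-sided, Benjamini-Hochberg over 7453 probe sets). Each test had 2 residual and 6.17 prior degrees of freedom. In the gene fit, the brightest tested probe set stood for each of 5583 genes. No detection calls were used. The code was tested on simulated data. The precision is limited by 2 arrays per group. Members, gene lists and tests were chosen with earlier results of these data known. Named genes were all members, list genes that passed (otherwise the 3 with the smallest p) and the 3 nearest profiles to Ifng and Ifngr1, while others were picked after their values had been seen, as stated beside them. Alternatives covered pseudocount, filter, normalization, variance model, gene level, pairing and leaving out each array.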

Additional observations from a re-analysis of the deposited data

How the results depend on the processing

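The differences of Ifng, Ifngr1, Irf1 and Il12rb1 kept their sign under every alternative run, and their calls varied. Ifngr1, not called over all probe sets at the reported settings, was called with the array median as pseudocount (-1.64), with robust eBayes (-1.87) and, over genes, with the brightest probe set or the mean of a gene's probe sets (both -1.87). With 1 array left out it ranged from -2.42 to -1.32. In the gene fit it ranged from -2.42 to -1.32 likewise, and lost its call with quantile normalization (-1.91) and with centring (-1.76). These gene fits were added after the data had been seen. Ifng ranged from 0.70 to 1.02 with 1 array left out. With the replicate number as a block, Ifng (0.86), Ifngr1 (-1.87), Irf1 (-0.87) and Il12rb1 (-0.96) passed, and calls rose to 761 (389 higher, 372 lower). Same-numbered arrays deviated together (r = 0.537 over probe sets), but the labels do not pair them and there are only 2 pairs. Values near 0 changed sign: Stat4 was at 0.09 with centring and ranged from -0.19 to 0.16 with 1 array left out, Il12rb2 from -0.56 to 0.94 and Il18r1 from -0.29 to 0.3, with -0.04 under quantile normalization. The cause was not tested.

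Called probe sets numbered 59 with no filter (42 higher, 17 lower), 64 with centring (12 lower), 38 with no intensity trend (28 and 10) and 44 to 354 with 1 array left out (27 to 211 higher, 12 to 143 lower). In the gene lists 5 calls became 2 with no filter, 3 with centring, 1 with no trend, 25 with the block and 0 to 18 with 1 array left out. With a gene's probe sets averaged, a Zap70 probe set turned from 0.21 to -0.22 and a Ms4a1 one from 0.12 to -0.14, and Klrd1 was at -0.03 under quantile normalization. With 1 array left out, marker genes near 0 crossed it: Zap70 from -0.67 to 1.09, Klrd1 from -0.16 to 0.19, Klra3 from -0.72 to 0.25, Csf1r from -0.64 to 0.71, Il18rap from -0.07 to 0.54, Cd79a from -0.63 to 0.13, Ms4a1 from -0.04 to 0.28 and Blk from -0.61 to 0.05.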
